A study of Mus musculus with 6 samples.

Results

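The genes described here encode voltage-gated sodium channels, voltage-gated calcium channels, hyperpolarization-activated (HCN) channels and transient receptor potential (TRP) channels. They were taken by gene symbol alone, as the symbols that begin with Scn, Hcn, Trpc, Trpm or Trpv followed by a digit, or with Cacna or Cacnb, without the Cacng genes. This gave 58 of the 21958 protein-coding genes in the deposited counts. Of the 58, Trpc4ap, encodes a protein that binds a TRPC channel and is itself no channel. RNA came from synaptoneurosomes, a brain fraction of pinched-off nerve endings with their attached postsynaptic parts, prepared from hippocampus and the neighbouring cortex of FVB mice aged 6 to 8 weeks. Polyribosomal RNA of 3 preparations was taken after stimulation of NMDA receptors with 50 µM NMDA and 10 µM glutamate for 30 s, then 120 µM APV, an NMDA receptor antagonist, over an incubation of 20 min. Total RNA of 3 unstimulated samples served for comparison. In the study's protocol, stimulated samples were warmed, while unstimulated controls were kept on ice with cycloheximide, an inhibitor of protein synthesis. Stimulation, these conditions and the fraction changed together and cannot be told apart. Per the study's methods the material of several mice was combined, so a replicate is a preparation and not an animal.

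Sodium channels carry the rising phase of the action potential, and calcium channels couple depolarization to transmitter release and to signalling in dendrites. Each consists of a large pore-forming alpha subunit with auxiliary subunits, and the cytoplasmic beta subunits of calcium channels bind the pore subunit and promote its presence at the membrane. HCN channels open on hyperpolarization, are modulated by cyclic AMP and set the resting properties of dendrites, and TRP channels are mostly non-selective cation channels with varied modes of opening.

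The beta subunits of calcium channels, with which the results below are most concerned, share a stretch of identical protein sequence that is encoded by different codons. The longest stretch identical in all 4 proteins has 27 residues, in the guanylate kinase-like domain. The coding sequence of its first 20 residues is printed here, 5′ to 3′ on the coding strand. Capitals mark the positions where the 4 genes differ. The stretch was chosen for its identity, so it does not measure how close the whole proteins are. The sequences are from Gencode vM21 transcripts on GRCm38.
Cacnb1: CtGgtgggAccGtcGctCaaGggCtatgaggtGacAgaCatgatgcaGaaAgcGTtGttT
Cacnb2: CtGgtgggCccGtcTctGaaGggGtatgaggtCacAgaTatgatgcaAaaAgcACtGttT
Cacnb3: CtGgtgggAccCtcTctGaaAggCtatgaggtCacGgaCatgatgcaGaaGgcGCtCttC
Cacnb4: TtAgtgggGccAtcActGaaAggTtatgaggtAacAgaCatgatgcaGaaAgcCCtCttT
The 4 sequences differ at 17 of 60 positions, of which 15 are the third position of a codon. G and C made up 53.3% of the stretch in Cacnb1, 50.0% in Cacnb2, 56.7% in Cacnb3 and 45.0% in Cacnb4. No pair of beta subunits shared an identical coding run as long as a read. The sodium channel alpha subunits are closer to each other. Over the coding sequences of the 58 genes, 6 of 1653 pairs shared an identical run at least as long as a read (100 bases), the longest of 188 bases between Scn1a and Scn2a1, and all 6 were among Scn1a, Scn2a1, Scn3a and Scn9a, whose counts are uncertain to that extent.

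Library totals ranged from 5294482 to 7361580 counts in the polyribosome libraries and from 1044955 to 3738022 in those of total RNA, and between 0.623% and 0.742% of the counts of each library fell on the 58 genes. The unit used throughout is CPM, the count of a gene per 1e6 counts of its library after TMM normalization, and a log2 fold change is polyribosome over total RNA. A count of 3 in a library corresponded to 0.405 to 0.616 CPM in polyribosome libraries and to 0.743 to 2.87 CPM in total RNA libraries, counting error only. Markers of neurons (Snap25, Syt1, Camk2a and others) summed to 7447 to 9346 CPM in polyribosome libraries and 7387 to 8538 CPM in total RNA. Markers of glia were also abundant. The 6 astrocyte markers summed to 36959 to 39071 CPM against 30360 to 34060 CPM, the 6 oligodendrocyte markers to 10235 to 14128 CPM against 7543 to 10653 CPM, and the 6 microglia markers to 708 to 838 CPM against 468 to 636 CPM. All 18 of these glial markers had positive log2 fold changes, with medians of 0.38, 0.38 and 0.45. The 6 neuronal ones had a median of 0.01 and ranged from -0.16 to 0.39. The 5 markers of inhibitory interneurons went both ways, 3 positive and 2 negative, from -0.66 (Gad2) to 0.94 (Sst) with a median of 0.36. The part of these cell types in the results below was not tested. In RNA of such a mixed fraction, fewer structures of a kind cannot be told apart from less RNA in each.

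At least 1 count was found for 56 of the 58 genes, and 41 passed the filter on low counts and were tested. For 32 of the 41 the libraries of both groups overlapped. None was called higher on polyribosomes and 1, the calcium channel beta subunit Cacnb2, was called lower (edgeR's quasi-likelihood test, Benjamini-Hochberg adjusted p under 0.01). Over all 12255 genes tested, 0.71% were called higher and 2.36% lower, so the count of members called was near the background. The median log2 fold change of the 41 genes was -0.01, against 0.00 over all genes, and 20 were positive and 21 negative. At an unadjusted p under 0.05, 4 were higher and 5 lower, where 15.4% and 17.1% of all genes were. DESeq2 called 0 higher and 3 lower (Cacnb2, Cacnb4 and Trpm7). It called 1.89% and 2.24% of the 16732 genes to which it gave a p-value. These include weakly expressed genes without an adjusted p, which could not be called, so the shares are not directly comparable with the members tested. When the replicate number was included as a block, 3 channel genes were called higher (Cacna1h and Cacna2d2 among them) and 4 lower (Cacnb2, Cacnb4, Trpm7 and Trpc6). That is 7.32% and 9.76% of the members tested, against 11.8% and 13.2% of all genes. In 5 members the 3 polyribosome libraries all lay above the 3 total RNA libraries and in 4 they all lay below, which is 12.2% and 9.76% against 17.4% and 18.9% of all genes. For comparison, 72 genes with symbols beginning with Kcn were tested, which are potassium channel genes and other genes of that name. Of these 0 were called higher and 1 lower, with a median of 0.08, where 0.71% and 2.36% of all genes were called. With the block 11 and 6 of the 72 were called, against 11.8% and 13.2% of all genes.

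**Figure D1:**
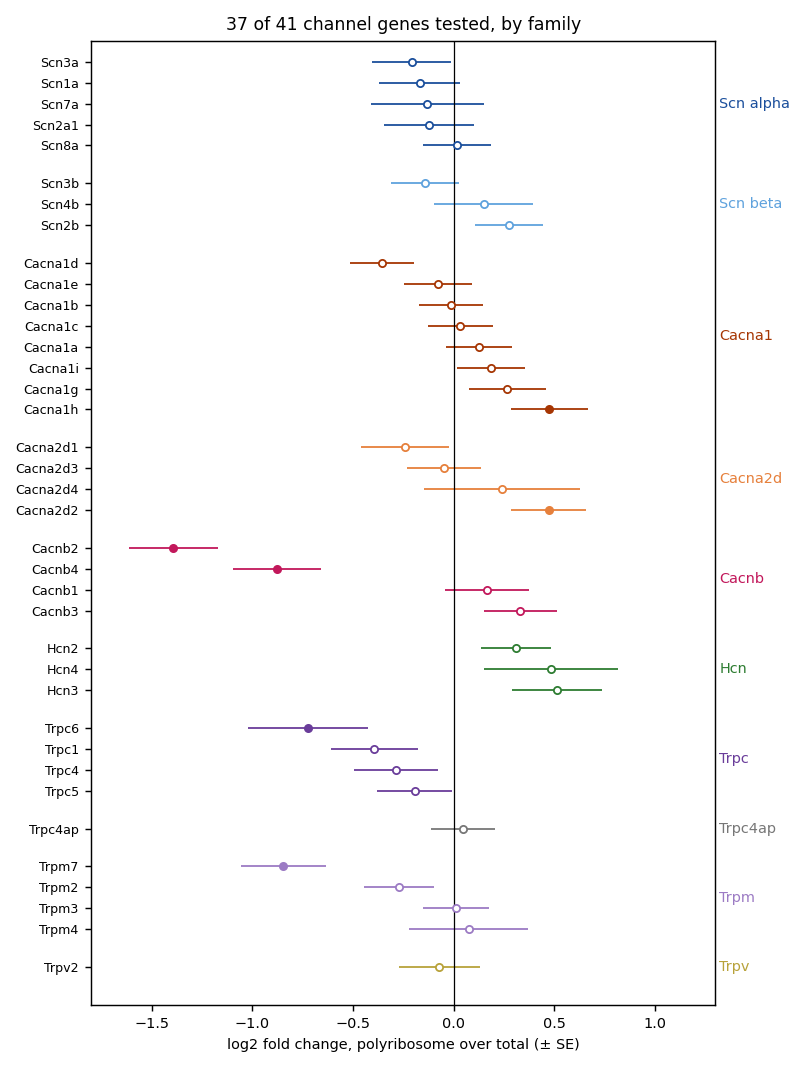
Log2 fold change (polyribosome over total RNA) with its standard error for 37 of the 41 genes tested, one line per gene, ordered within family and coloured by family; filled points passed the threshold of 0.01 in the fit with the replicate block. Cacnb2 lies farthest from 0, at -1.39, and Hcn2, Hcn3 and Hcn4 lie right of 0 while Trpc1, Trpc4, Trpc5 and Trpc6 lie left of it.

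The calcium channel beta subunits did not share a direction, with log2 fold changes from -1.39 to 0.33. Cacnb2 (chr2:14603088-14987908) was at 11.9, 10.7 and 6.98 CPM in polyribosome replicates 1 to 3 and at 29.2, 23.4 and 25.8 CPM in total RNA replicates 1 to 3. The highest polyribosome library was thus well below the lowest total RNA library. The means were 9.84 ± 2.55 and 26.1 ± 2.93 CPM (SD, n = 3 each), a 2.63-fold lower abundance on polyribosomes (log2 fold change -1.39, SE 0.22, adjusted p = 0.00243 in edgeR's quasi-likelihood test, and 6.82e-10 with the replicate block). These values rest on 34 to 88 counts in each polyribosome library and 27 to 118 in each total RNA library. Without polyribosome replicate 2 the adjusted p of this edgeR test was 0.0123, without total RNA replicate 1 it was 0.0196 and without total RNA replicate 2 it was 0.0135, with log2 fold changes of -1.29 to -1.48, so the call depended on each of these libraries. With all libraries thinned to the smallest total the log2 fold change was -1.46 (adjusted p = 0.0102, edgeR).

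Cacnb4 (chr2:52428320-52676831), the beta subunit whose loss causes ataxia and seizures in the lethargic mouse, was at 77.6, 79.2 and 46.0 CPM on polyribosomes and at 150, 123 and 96.6 CPM in total RNA. Again the groups did not overlap, although the lowest total RNA library and the highest polyribosome library were close. The log2 fold change was -0.88 (SE 0.22), with an adjusted p of 0.0192 in edgeR, 1.64e-08 with the replicate block and 0.00527 in DESeq2. Cacnb3, the beta subunit of highest level per kilobase, had 225, 215 and 222 CPM on polyribosomes and 136, 185 and 209 CPM in total RNA. All polyribosome libraries were above those of total RNA, but the spread of the latter was wide and the gene did not pass the test (log2 fold change 0.33, SE 0.18, adjusted p = 0.223 in edgeR and 0.0208 with the block). Cacnb1 overlapped between groups, at 52.9, 42.5 and 48.3 against 34.2, 39.1 and 61.2 CPM (log2 fold change 0.16, adjusted p = 0.629, edgeR). The gene bodies of Cacnb2 and Cacnb4 carry exons of another gene on the opposite strand, over 253 bases (Gm10849) and 1170 bases (A430018G15Rik), and reads of the opposite strand may have been counted, since the use of strand in counting is not given in the sources used here.

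**Figure D2:**
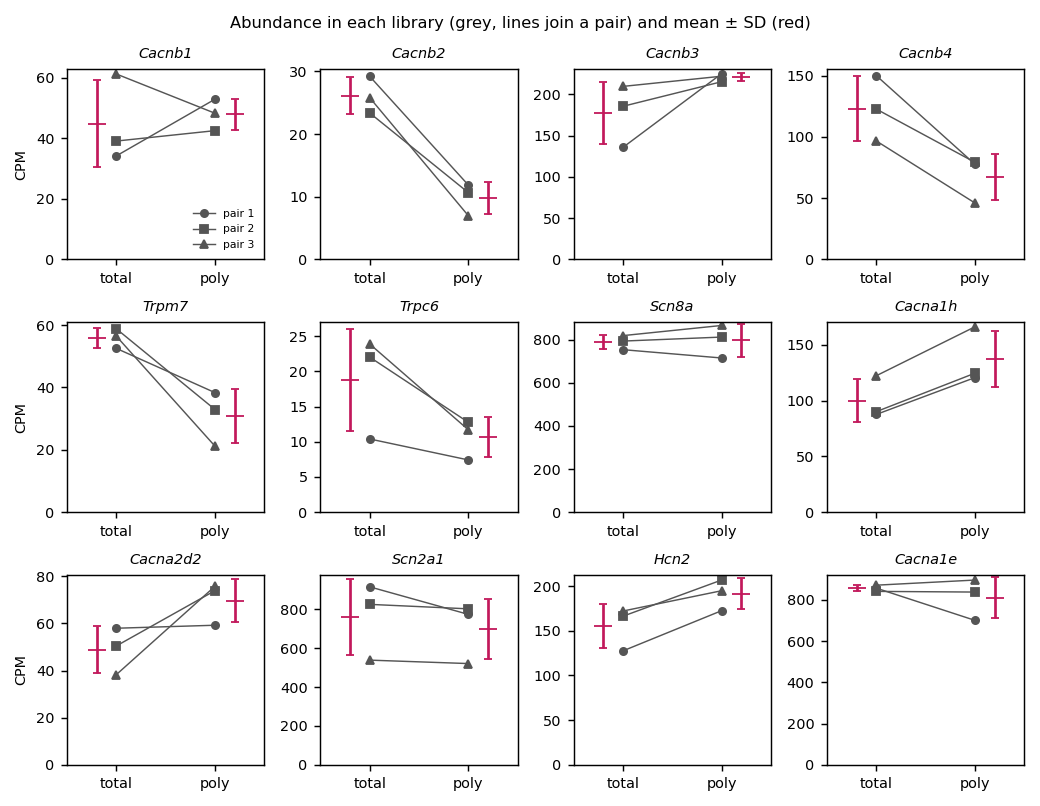
Abundance (CPM, linear axis from 0) of 12 channel genes in each library; grey lines join the total RNA and the polyribosome library of one replicate number, and red marks show the mean ± SD of 3 libraries. Cacnb2, Cacnb4 and Trpm7 are lower on polyribosomes along all 3 lines with no overlap between groups, whereas the groups overlap for Cacna1e and Scn2a1.

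The pore-forming calcium channel subunits differed little. Of the 10 Cacna1 genes 8 were tested, with log2 fold changes of -0.36 to 0.48 and a median of 0.08 (-0.03 with library totals only, a scaling that moved the median of all genes to -0.11). Cacna1e, the R-type channel and the pore subunit of highest level per kilobase, was at 700, 838 and 896 CPM on polyribosomes and at 857, 841 and 871 CPM in total RNA. The total RNA libraries lay within the range of the polyribosome libraries, and the log2 fold change was -0.08 (SE 0.17). Cacna1a and Cacna1b, which encode the P/Q-type and N-type channels of presynaptic terminals, had log2 fold changes of 0.12 and -0.01 (both SE 0.16), and the L-type channel Cacna1c had 0.03. Cacna1d, the other L-type channel tested, had polyribosome libraries at 68.1 to 70.4 CPM and total RNA libraries at 78.5 to 97.6 CPM. They did not overlap, and the log2 fold change of -0.36 did not pass the test (adjusted p = 0.136, edgeR, and 0.0208 with the block). Exons on the opposite strand overlap those of Cacna1d (Chdh, 587 bases) and Cacna1a (Gm16183, 229 bases). The 3 low-threshold T-type channels, which open near rest and drive burst firing, all had positive values: 0.27 for Cacna1g, 0.48 for Cacna1h and 0.19 for Cacna1i. With the GC and length offset and the block they were 0.13, 0.26 and 0.05. Cacna1h was at 121, 125 and 166 CPM against 87.7, 90.2 and 122 CPM. The groups overlapped, yet each polyribosome library was above the total RNA library of its own number, and the adjusted p of 0.0971 (edgeR) became 0.00204 with the block. Overlap with Tpsg1 on the opposite strand covers 158 bases of its exons.

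Of the extracellular alpha2delta subunits, which aid the trafficking of calcium channels and of which the products of Cacna2d1 and Cacna2d2 bind gabapentin, 4 of 4 were tested. Cacna2d1, the member of highest level per kilobase, was at 372, 394 and 255 CPM on polyribosomes and at 442, 480 and 281 CPM in total RNA. Each pair was lower on polyribosomes, but replicate 3 was low in both groups and the groups overlapped (log2 fold change -0.24, adjusted p = 0.477, edgeR). Cacna2d2 was at 59.2, 73.9 and 75.8 CPM against 58.0, 50.4 and 38.3 CPM. The groups did not overlap, although replicate 1 hardly differed between them (log2 fold change 0.47, SE 0.19, adjusted p = 0.0938 in edgeR). With the block the edgeR adjusted p was 0.00763, although the pairs differed widely, with log2 differences of 0.03, 0.55 and 0.97. Exons of Gm17141 on the opposite strand overlap those of Cacna2d2 over 82 bases. Cacna2d3 and Cacna2d4 had log2 fold changes of -0.05 and 0.24 and overlapped.

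For sodium channels, the pore-forming alpha subunits and the small auxiliary beta subunits, single-span proteins with an immunoglobulin-like domain, were described apart. Of 10 alpha subunit genes 6 were tested. Their median log2 fold change was -0.15 and was positive, 0.28, in the fit with an offset for GC content and length and the block. Scn2a1, the member of highest level per kilobase and the gene of the Nav1.2 channel of excitatory neurons, was at 774, 802 and 521 CPM on polyribosomes and at 916, 825 and 538 CPM in total RNA. Replicate 3 was the lowest of both groups, and within each pair the difference was small (log2 fold change -0.12, SE 0.22, adjusted p = 0.741, edgeR). Scn1a, of the Nav1.1 channel found in inhibitory neurons, was also lowest in replicate 3 of both groups, with 210, 239 and 161 against 251, 259 and 170 CPM (log2 fold change -0.17). Scn8a, of the Nav1.6 channel of the axon initial segment and nodes of Ranvier, was at 715 to 866 CPM on polyribosomes and at 753 to 819 CPM in total RNA (log2 fold change 0.02). Scn3a and Scn7a, the latter at under 10 CPM in each library, had log2 fold changes of -0.21 and -0.13 and overlapped between groups.

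The median log2 fold change of the 4 sodium channel beta subunits was 0.21, and 0.05 in the fit with an offset for trends with GC content and length and the block. Scn2b was higher on polyribosomes in 3 of 3 pairs (286, 371 and 302 against 243, 287 and 263 CPM, log2 fold change 0.27), but its groups overlapped. Scn3b and Scn4b had log2 fold changes of -0.14 and 0.15.

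The HCN genes had a median log2 fold change of 0.40, and Hcn2, Hcn3 and Hcn4 did not pass the test, with or without the block. Hcn2, the member of highest level per kilobase, was at 173, 207 and 195 CPM on polyribosomes and at 128, 166 and 172 CPM in total RNA. The groups just failed to overlap (log2 fold change 0.31, SE 0.17, adjusted p = 0.233 in edgeR and 0.0359 with the block). Hcn3 was also apart, at 14.6, 19.4 and 13.1 against 10.4, 12.03 and 10.5 CPM (log2 fold change 0.51, adjusted p = 0.126, edgeR), and its exons overlap those of Pklr on the opposite strand over 711 bases. Hcn4, the pacemaker channel of the heart and of low level here, had 5.13, 8.71 and 7.19 against 3.47, 5.68 and 7.65 CPM and overlapped. With the offset and the block the log2 fold change of Hcn2 was -0.20, that of Hcn3 0.32 and that of Hcn4 0.27.

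Of the 7 TRPC genes, which encode channels opened downstream of phospholipase C, 5 were tested, with a median log2 fold change of -0.29, and -0.09 with the GC and length offset and the block. Trpc6 was at 7.42, 12.8 and 11.7 CPM on polyribosomes and at 10.4, 22.0 and 23.9 CPM in total RNA. Replicate 1 was low in both groups, so that the groups overlapped while each pair was lower on polyribosomes. The log2 fold change of -0.72 (SE 0.30) had an adjusted p of 0.109 in edgeR and 0.00107 with the block. Trpc4, the TRPC channel of highest level per kilobase, had 38.5, 35.5 and 25.9 against 45.3, 44.1 and 28.7 CPM (log2 fold change -0.29, SE 0.21, adjusted p = 0.366, edgeR). Trpc1 and Trpc5 had log2 fold changes of -0.40 and -0.19 and did not pass the test in either fit. Trpc4ap overlapped between groups, at 85.1 to 91.5 against 78.8 to 93.9 CPM.

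Among the 8 TRPM genes 4 were tested. Trpm7 (chr2:126791565-126876230), a channel fused to a protein kinase and permeable to magnesium, calcium and zinc, was at 38.3, 32.9 and 21.2 CPM on polyribosomes and at 52.5, 58.8 and 56.4 CPM in total RNA. Each polyribosome library was below each total RNA library. The log2 fold change was -0.85 (SE 0.21), with an adjusted p of 0.0187 in edgeR, 2.37e-06 with the block and 0.00861 in DESeq2. Trpm3, the member of highest level per kilobase, a heat-sensitive channel opened by pregnenolone sulfate, overlapped between groups, with 196, 188 and 195 against 210, 198 and 164 CPM (log2 fold change 0.01, SE 0.16). Its exons overlap those of C330002G04Rik (351 bases) and Gm27151 (277 bases) on the opposite strand. Trpm2 and Trpm4 had log2 fold changes of -0.27 and 0.08 and overlapped. The one TRPV gene tested of 6 was Trpv2, at 13.9, 18.0 and 17.7 against 18.3, 17.7 and 14.3 CPM, with a log2 fold change of -0.07 (SE 0.20).

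The 17 genes left untested include most channels known from sensory neurons, muscle and epithelia. Trpc2 and Trpv5 had 0 counts in the 6 libraries. The exons of Trpc2, of which the transcript has 2874 bases, overlap those of Xntrpc on the same strand over 2741 bases, so reads from this locus may not have been assigned to Trpc2 and its 0 says nothing of its level. Scn10a and Scn11a, of nociceptors, had 5 and 8 counts over the 6 libraries and Scn4a, the channel of skeletal muscle, had 2. Trpv1, the capsaicin receptor, had 4 counts, all in polyribosome replicate 1, and Trpm8, the cold and menthol receptor, had 8. Trpm1 had 4 counts, all in total RNA replicate 2. The other genes, Scn9a, Cacna1f, Cacna1s, Trpc7, Trpm5, Trpm6, Trpv3, Trpv4 and Trpv6, had between 4 and 49 counts in all. Apart from Trpc2, differences between groups were not detectable for these genes at this depth.

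Levels per kilobase divide the counts of a gene by the length of a single transcript, so comparisons between genes are approximate. The transcripts used had very unlike noncoding parts, with 0 bases for Cacna1c, 195 for Cacna1b and 621 for Cacna2d1 but 8099 for Cacna1e. Where the transcript used lacks noncoding sequence that is present in the RNA, the value is too high. In total RNA, Cacna2d1 had 102 ± 26.9 CPM per kilobase, Scn2a1 85.0 ± 22.1, Cacnb3 71.4 ± 15.2, Scn8a 69.0 ± 2.88, Cacna1e 57.4 ± 1.01, Scn2b 56.8 ± 4.73 and Hcn2 48.6 ± 7.59 (SD, n = 3). Cacna2d1 and Scn2a1, and again Scn2a1, Cacnb3 and Scn8a, lay within each other's spread. On polyribosomes Cacnb3 (89.1 ± 2.01 CPM per kilobase), Cacna2d1 (86.6 ± 19.0) and Scn2a1 (78.2 ± 17.4) lay within their spread. Below them, the presynaptic channels Cacna1a and Cacna1b were at 42.1 ± 2.92 and 41.1 ± 2.47 CPM per kilobase in total RNA with overlapping spread, and Cacnb2 was at 6.63 ± 0.744 CPM per kilobase.

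**Figure D3:**
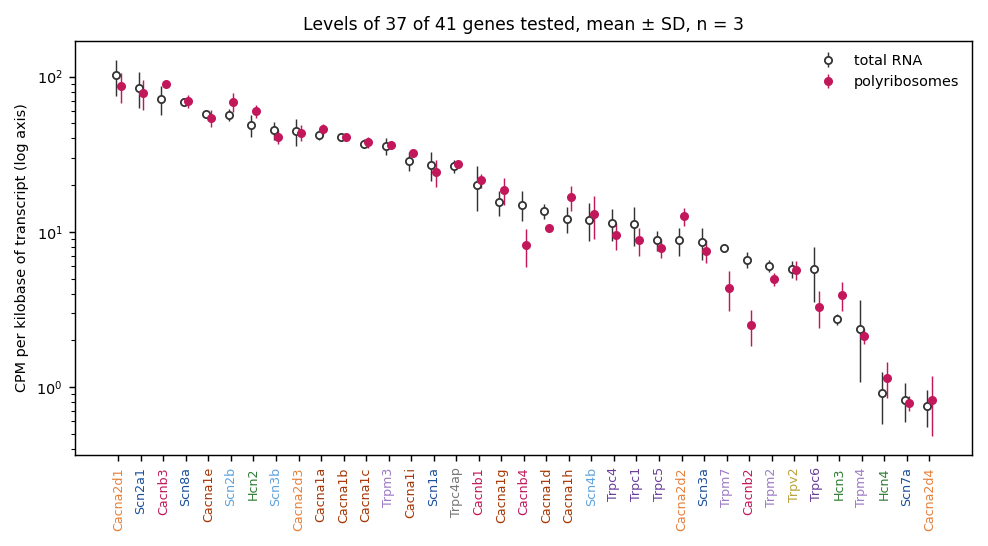
Level of 37 of the 41 genes tested in CPM per kilobase of transcript (log axis), mean ± SD of 3 libraries, for total RNA (open) and polyribosomes (filled), ordered by the level in total RNA and with symbols coloured by family. Cacna2d1 is at the left end, at 102 in total RNA, and the filled points of Cacnb2, Cacnb4 and Trpm7 lie clear below their open points.

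The transcripts of the members differ in base composition, and the log2 fold changes followed it. Over the 41 genes tested, the log2 fold change had a Pearson correlation of 0.64 and a Spearman correlation of 0.70 with the GC content of the transcript, and over the 12212 genes with a GC content they were 0.53 and 0.53. These describe genes of the same 6 libraries, which are not independent replicates. With transcript length the Pearson correlation over the members was -0.08 and the Spearman correlation -0.10, against -0.32 and -0.33 over the 12212 genes. Trpm7 was at 40.1% GC, Scn7a at 40.2%, Cacnb4 at 40.5% and Cacnb2 at 46.3%, whereas Cacna1h was at 60.0% and Hcn2 at 65.4%. When an offset for GC content and length was fitted in each library together with the replicate block, the Spearman correlation over the members was -0.12 with GC content and 0.42 with transcript length, and 14 of the 41 log2 fold changes had the other sign. The offset was estimated from these same libraries to remove such trends, so the loss of the correlation with GC content follows from the method. In that fit 1 member was called higher and 1 lower (Cacnb2), 2.44% of the members tested each, where 9.87% and 6.98% of all genes were called. Cacnb2 was at -1.11 (adjusted p = 1.20e-08, edgeR), while Cacnb4 was at -0.34 (0.0209), Trpm7 at -0.29 (0.0850), Trpc6 at -0.53 (0.0229), Cacna1h at 0.26 (0.0954) and Cacna2d2 at 0.36 (0.0190).

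**Figure D4:**
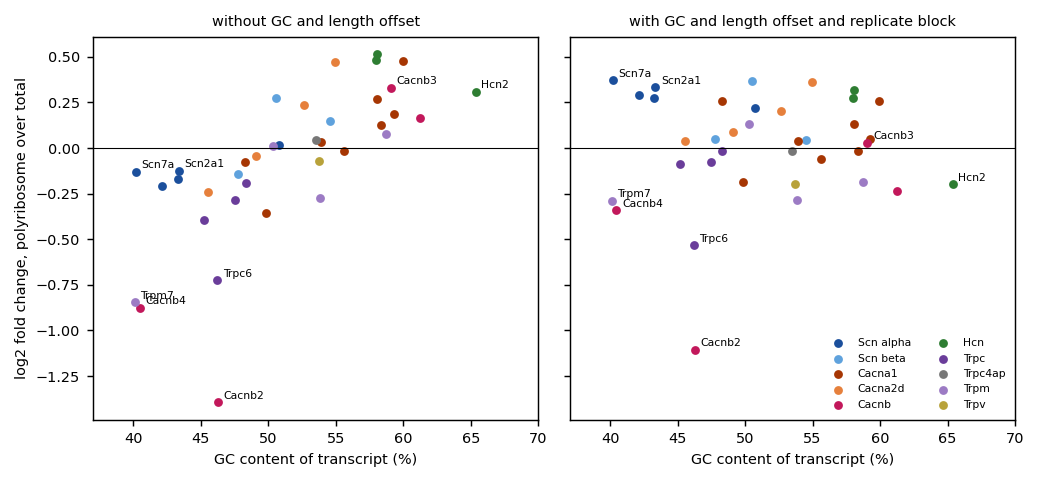
Log2 fold change (polyribosome over total RNA) of 37 of the 41 genes tested against the GC content of the transcript in percent, without the offset (left) and with the GC and length offset and the replicate block (right), coloured by family. The points rise from left to right in the left panel and not in the right one, where the offset was fitted to remove such a trend. Cacnb2 lies lowest in the right panel, at -1.11.

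Genes that act with these channels were taken from a list of 42, of which 37 were tested. None was called higher and 2 were called lower in edgeR, where 0.71% and 2.36% of all genes were. With the block 4 were called higher and 8 lower, against 11.8% and 13.2% of all genes, and with the GC and length offset as well 1 and 5 were, against 9.87% and 6.98%. In edgeR without the block 13 values were positive and 24 negative, with a median of -0.12. Ryr3, a ryanodine receptor that releases calcium from the endoplasmic reticulum, was at 39.8 ± 2.39 CPM on polyribosomes and at 86.2 ± 16.8 CPM in total RNA (log2 fold change -1.09, SE 0.18, adjusted p = 0.00293, edgeR, and -0.76 with the offset and the block). Unc79, a subunit of the sodium leak channel complex, was at 64.1 ± 6.67 against 114 ± 16.0 CPM (log2 fold change -0.81, SE 0.17, adjusted p = 0.00918, edgeR, and -0.61 with the offset and the block). With the block the genes called lower were these and Unc80 of the same complex, the ryanodine receptor Ryr2, the sodium channel binding factors Fgf12 and Fgf14, the HCN accessory protein gene Pex5l and Rims2 of the active zone. With the offset and the block, Ryr3, Unc79, Ryr2 and Rims2 were again called lower, while Unc80 (adjusted p = 0.315, edgeR), Fgf12 (0.105), Fgf14 (0.0386) and Pex5l (0.196) were not. The fifth gene called lower in that fit was Cacng7, at -0.41. Those called higher with the block were Stim1 and Orai1, the sensor and pore of store-operated calcium entry, and Cacng5 and Cacng8, which encode AMPA receptor auxiliary proteins named after a calcium channel subunit. Of these, Cacng5 passed with the offset and the block (adjusted p = 0.00581, edgeR), and Stim1 (0.0130), Orai1 (0.239) and Cacng8 (0.331, with a log2 fold change of 0.16 in place of 0.77) did not.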

How the data were processed

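RNA of 3 polyribosome and 3 total RNA samples was compared. The authors depleted ribosomal RNA, made strand-specific libraries, mapped reads with STAR (2.5.2b in the submitters' processing notes) to GRCm38 and counted them per gene of Gencode vM6. The deposited table holds unnormalized counts per protein-coding gene. It also holds the authors' own comparison, with a mean normalized signal, a log2 fold change and its error, a Wald score and a p-value with its adjusted value, and none of these columns was used. The use of strand in counting is not given in the sources used here. No column belonged to a sample of another series.

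The counts were fitted over the whole table with edgeR 4.0.16 in R 4.3.3 (TMM, filterByExpr, quasi-likelihood test, group only, Benjamini-Hochberg adjustment, threshold 0.01), and 12255 genes were tested. DESeq2 1.42.0 was an alternative, beside other scalings, no filter, thinning, leaving out each library, and an offset fitted in each library as splines of GC content and length of the Gencode vM21 transcript with the longest coding part, which 99.6% of the genes tested had. The edgeR fit with group only was run on simulated counts with known changes, and the other fits were not. Library totals were 1044955 to 7361580 counts, and the shallowest total RNA library limits weakly expressed genes. Libraries of one group differed by more than sampling noise (chi-square per degree of freedom 3.58 to 20.9).

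Per the study's methods a preparation was divided into aliquots, and the column headers of the same replicate number share a label. The deviations of same-numbered libraries from their group means correlated at 0.36, 0.25 and 0.38 across genes, so same-numbered libraries are described as pairs. The main fit, with group only, did not use this pairing, and adjusted p-values given without mention of the block are unpaired. The fit with the replicate as a block is given where it changes a call, and for some other genes. Each SE beside a log2 fold change is from the main fit. With the block the SE hardly followed the agreement of a gene's pairs. It was 0.125 for Cacna1h, with log2 differences of 0.46, 0.47 and 0.44, and 0.136 for Cacna2d2, with 0.03, 0.55 and 0.97. Adjusted p-values with the block thus do not measure how well the 3 pairs of a gene agreed. Values in each library are given for members with an adjusted p under 0.01 in either fit and for the member of each family with the highest CPM per kilobase, and other members by their log2 fold change. Partner genes were named where they passed the main test, and the others called with the block, or with the offset and the block, were named after their values were seen. The members and lists were chosen with earlier results of these data known. Counts, medians and correlations cover all members tested, but 4 of them are not reported here by name or in the figures.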

Additional observations from a re-analysis of the deposited data

How the results depend on the processing

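The count of members called higher was 0 in the reported fit, 3 with the replicate block, 1 with the GC and length offset and 1 with that offset and the replicate block. The count called lower was 1 in the reported fit, 3 with DESeq2, 3 with no filter on low counts, 4 with the replicate block and 0 after thinning, and 0 to 1 when each library was left out. With library totals only, the median log2 fold change was -0.26 for the Scn alpha subunits, 0.10 for the Scn beta subunits, -0.027 for Cacna1, -0.39 for Trpc and -0.12 for all members. That scaling also moved the median of all genes tested, from 0.00 to -0.11, so these shifts are not particular to the families. With the GC and length offset alone it was 0.27 for Scn alpha, 0.072 for Scn beta and -0.11 for Trpc, and with the offset and the replicate block it was 0.28, 0.048 and -0.087. After thinning it was -0.15 for Cacna2d and -0.53 for Trpc. The filter on low counts was applied again there, and 9370 genes were tested in place of 12255. Fewer members passed than in the reported fit, so medians after thinning are not directly comparable with the others. When each library was left out, the median ranged from -0.32 to -0.050 for Scn alpha, from 0.063 to 0.36 for Scn beta, from 0.15 to 0.48 for Hcn and from -0.42 to -0.15 for Trpc. Leaving out total RNA replicate 1 gave the lowest Scn beta and Hcn medians, and leaving out total RNA replicate 3 the lowest Scn alpha and Trpc medians. With the replicate block no member changed sign, and the calls it added are given beside each gene. The causes of these shifts were not tested. Depth was lowest in total RNA, where 3 counts in replicate 3 stand for 2.87 CPM.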
